A study of Homo sapiens with 36 samples.

Results

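The comparison asked whether the expression response to one siRNA against HDAC11 changed between 42 h and 54 h after transfection. It was taken as a difference of differences: HDAC11 siRNA no. 1 minus the negative control Neg Co. No. 1 at 54 h, minus the same contrast at 42 h. The members were the arrays labelled with those treatments and times, 16 of the 36 arrays of the series, with 4 arrays in each of the 4 groups (2 of BE(2)-C and 2 of IMR-32). The other arrays carried HDAC11 siRNA no. 2 or the 48 h time point and were used here for side-by-side values.

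BE(2)-C and IMR-32 are human neuroblastoma cell lines with amplified MYCN. Both were grown in the same medium and transiently transfected with the HiPerFect reagent, and the control cultures received the AllStars non-targeting siRNA, so that transfection itself is shared by all groups. Total RNA was amplified to labelled cRNA and read on Illumina whole-genome bead arrays. Per the series design each condition had 2 biological replicates, and each line stands for 1 tumor.

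HDAC11 is the only class IV histone deacetylase, and it also removes fatty acyl groups from lysine. A short interfering RNA is loaded into an Argonaute complex that cleaves the matching mRNA. The transcript is then depleted within hours, whereas the protein and the programs downstream of it follow more slowly, so that early and late time points can differ. Dividing neuroblastoma cells express a periodic program. DNA replication genes and replication-dependent histones rise at the entry to S phase, and cyclin B, mitotic kinases, kinesins and kinetochore genes rise towards mitosis. Many promoters of the mitotic genes hold a cell cycle genes homology region (TTTGAA or TTCGAA) and CCAAT boxes bound by NF-Y, while promoters of the H2A and H2B histone genes hold an octamer bound by OCT1 and a TATA box.

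These elements are shown in the promoters of 2 genes that were lower (CENPA, KIF14) and 2 that were higher (H2AC6, H2BC12) with siRNA no. 1 at both times. CENPA encodes the centromeric variant of histone H3, and KIF14 is a kinesin of the central spindle. H2AC6 and H2BC12 encode histones H2A and H2B. The windows run from 250 bases before to 50 bases after the start of the gene, on the gene's own strand (RefSeq, GRCh38.p14). They lie at chr2:26785806-26786105 (CENPA, plus strand), chr1:200620702-200621001 (KIF14, minus strand), chr6:26123922-26124221 (H2AC6, plus strand) and chr6:27146809-27147108 (H2BC12, minus strand, the first of 2 windows listed). In the first pair capitals mark TTTGAA or TTCGAA and CCAAT on either strand, and in the second pair ATTTGCAT and TATAAA on either strand.
CENPA: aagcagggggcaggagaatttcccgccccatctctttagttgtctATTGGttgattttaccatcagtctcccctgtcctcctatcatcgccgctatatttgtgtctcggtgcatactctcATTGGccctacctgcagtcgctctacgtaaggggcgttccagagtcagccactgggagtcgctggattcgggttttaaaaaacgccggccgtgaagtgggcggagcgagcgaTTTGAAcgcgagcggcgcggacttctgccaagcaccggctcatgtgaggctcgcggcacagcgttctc
KIF14: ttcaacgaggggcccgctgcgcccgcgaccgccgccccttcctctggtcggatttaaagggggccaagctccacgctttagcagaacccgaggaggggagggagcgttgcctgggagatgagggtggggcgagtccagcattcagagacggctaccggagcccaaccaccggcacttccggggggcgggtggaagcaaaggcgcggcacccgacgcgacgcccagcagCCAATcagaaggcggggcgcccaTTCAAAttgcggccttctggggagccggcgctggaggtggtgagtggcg
H2AC6: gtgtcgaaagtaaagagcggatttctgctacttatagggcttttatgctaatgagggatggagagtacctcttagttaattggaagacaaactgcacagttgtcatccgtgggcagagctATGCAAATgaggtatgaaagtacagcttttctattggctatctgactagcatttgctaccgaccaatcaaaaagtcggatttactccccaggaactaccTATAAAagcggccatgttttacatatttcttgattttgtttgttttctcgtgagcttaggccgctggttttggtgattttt
H2BC12: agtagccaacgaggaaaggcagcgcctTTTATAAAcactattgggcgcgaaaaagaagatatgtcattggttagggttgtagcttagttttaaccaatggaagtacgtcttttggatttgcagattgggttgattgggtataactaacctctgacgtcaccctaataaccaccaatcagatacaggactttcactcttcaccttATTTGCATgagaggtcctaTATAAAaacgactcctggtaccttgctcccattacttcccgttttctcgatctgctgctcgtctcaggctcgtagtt

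In CENPA the TTTGAA letters stood at bases 233 to 238 of the window, and in KIF14 the same letters stood on the other strand at bases 252 to 257. The KIF14 window also held CCAAT at bases 229 to 233, and CENPA held it on the other strand at bases 46 to 50 and 121 to 125. The octamer of H2BC12 was at bases 205 to 212, ahead of a TATAAA at bases 224 to 229, and TATAAA also overlapped its own complement at bases 28 to 35. The octamer of H2AC6 was on the other strand at bases 121 to 128. TTTGAA or TTCGAA was held by 16.4% of all 35116 promoter windows, by 17.7% of the 1222 windows of genes lower at both times and by 11.3% of the 1191 windows of genes higher at both times. CCAAT was held by 34.6%, 42.6% and 35.6% of these windows. Among the 10 windows of the 8 histone genes higher at both times, 4 held ATTTGCAT (1.77% of all windows) and 8 held TATAAA (11.5% of all windows). CCAAT, which is not marked in the H2AC6 and H2BC12 windows, was held by 9 of these 10 histone windows, so it does not part the 2 pairs. These matches describe letters only; no binding was measured.

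Between 17494 and 19783 probes were detected per array, and replicate arrays correlated at r = 0.985 to 0.994. The number of arrays, not counted molecules, limits the precision. All 9 measured markers of neuroblastoma cells were detected, and 7 of 19 markers of stromal, Schwann, blood and endothelial cells. The HDAC11 probe was detected on 1 of the 16 arrays, with log2 levels of 6.61 to 6.99, so the arrays give no check of the knockdown; its change was -0.12 (95% interval -0.35 to 0.11). One array stood apart: the BE(2)-C control at 54 h, replicate 1. It correlated at 0.9801 with the BE(2)-C control arrays of the other times, while replicate 2 correlated at 0.9945. Across the 11003 genes detected on at least 8 of the 16 arrays, 108 lay more than 1 log2 unit from the mean of the 42 h and 48 h controls on that array and 0 on replicate 2. Results that changed most without that array are given with and without it.

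In the fit of both lines together, 0 of 20045 genes rose or fell past an adjusted p of 0.05 (limma, Benjamini-Hochberg). The background was 0% called in each direction, and the smallest adjusted p was 1 after rounding. At an unadjusted p under 0.05 there were 399 genes (1.99%) with a higher and 359 (1.79%) with a lower effect at 54 h, together 758 or 3.78% of the genes tested. The estimates were narrow. The change had a median of -0.0004 and an SD of 0.127 over all genes, and it ranged from -0.62 to 0.63 log2 units. For detected genes the median half-width of the 95% interval was 0.264, and for 10978 of 11003 (99.8%) the interval lay within 1 log2 unit of 0 on both sides. No change of any size in this range passed adjustment over all probes. A model with a mean for each of the 8 combinations of line, siRNA and time likewise called 0 genes (smallest adjusted p 0.656, 1230 genes at an unadjusted p under 0.05).

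The effect itself was large at each time. At 42 h, 1203 genes were higher with siRNA no. 1 (6% of those tested) and 1149 were lower (5.73%); at 54 h, 1615 were higher (8.06%) and 1465 lower (7.31%). These 2 effects rest on separate arrays. Both times shared 930 higher genes (4.64%), which were 77.3% of those called at 42 h and 57.6% of those called at 54 h. They shared 981 lower genes (4.89%), 85.4% and 67% of the respective lists. No gene was called in opposite directions. Of the 1203 genes higher at 42 h, 1196 had a positive effect at 54 h, and of the 1149 lower genes, 1141 had a negative one. The 685 genes called higher at 54 h alone and the 484 called lower at 54 h alone were mostly not separated from their 42 h values: the change itself reached an unadjusted p under 0.05 for 96 and 71 of them, and an adjusted p under 0.05 for none. When arrays were scaled to their medians instead, the split at 42 h moved to 1449 higher and 722 lower (66.7% higher, against 51.1%), and at 54 h to 1170 and 1353 (46.4% against 52.4%).

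**Figure D1:**
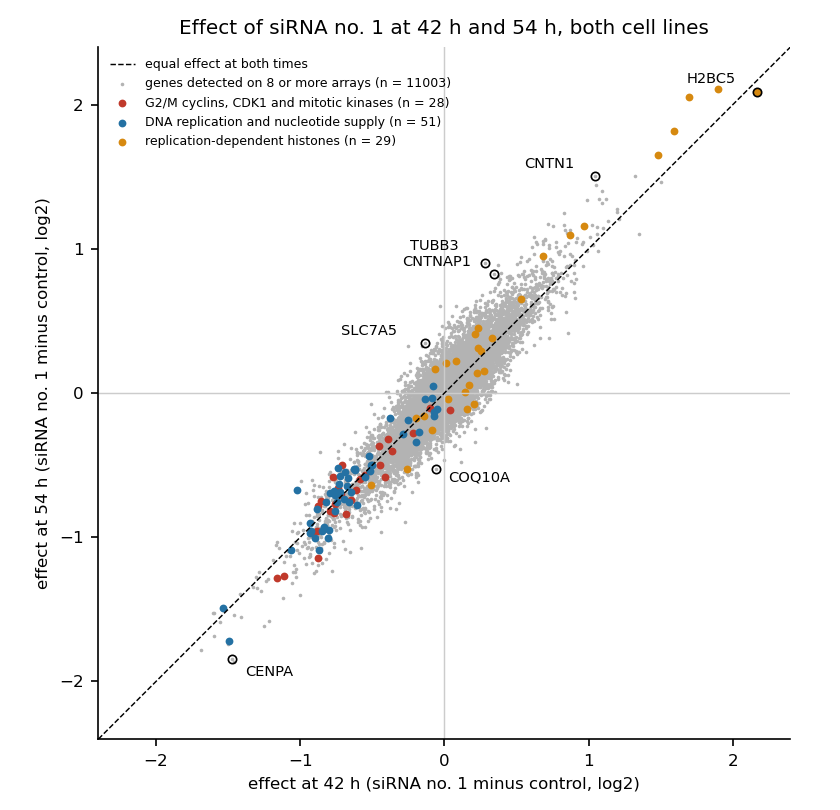
Effect of siRNA no. 1 (log2, minus control) at 42 h on the x axis and at 54 h on the y axis; each point is 1 of 11003 detected genes, colored points are members of 3 gene lists and the dashed line is an equal effect. The points follow the dashed line (Pearson r = 0.909 across genes, which are not independent replicates). Most of the mitotic and replication genes lie at the lower left. The 8 histone genes higher at both times lie at the upper right, while the median effect of the 59 histone genes is 0.06 at 42 h and 0.04 at 54 h.

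Across detected genes, the 42 h and 54 h effects correlated at r = 0.866 in BE(2)-C and 0.883 in IMR-32. Between the lines, the effect correlated at 0.654 at 42 h and 0.595 at 54 h. The change correlated less. Its correlation between the lines was 0.155. Between replicate 1 and replicate 2, each with a single array per group, it was 0.136 in BE(2)-C and 0.104 in IMR-32. These are descriptions across genes, and no p was computed.

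CENPA was among the genes with the largest negative effects. Its BE(2)-C log2 level at 42 h was 9.80 and 9.93 on the control arrays and 8.28 and 7.74 on the siRNA arrays, and at 54 h 9.94 and 10.09 against 7.89 and 7.66. In IMR-32 it was 9.92 and 10.00 against 8.49 and 9.27 at 42 h, and 10.10 and 10.09 against 8.34 and 8.96 at 54 h. The siRNA arrays lay below the controls in each line at each time, without overlap, and the IMR-32 siRNA replicates lay further apart than the others. The effect went from -1.47 at 42 h to -1.84 at 48 h and -1.85 at 54 h, and the change of -0.38 had an interval of -0.91 to 0.16 (unadjusted p = 0.158, limma).

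H2BC5, a histone H2B gene, had the largest positive effect at 42 h. The BE(2)-C values were 9.26 and 9.28 in controls against 11.01 and 11.08 with the siRNA at 42 h, and 9.34 and 9.10 against 10.59 and 10.67 at 54 h. In IMR-32 it was at 7.06 and 7.09 against 9.64 and 9.65, and at 7.28 and 7.30 against 10.14 and 9.99. Groups did not overlap within a line, and the effect was 1.77 then 1.41 in BE(2)-C and 2.57 then 2.78 in IMR-32. The joint change was -0.08, and the difference of the change between the lines was -0.57 (95% interval -1.004 to -0.14, unadjusted p = 0.0106), which did not pass adjustment.

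The neuronal adhesion gene CNTN1 was higher at each time. BE(2)-C arrays were at 9.21 and 9.19 in controls and 9.94 and 10.01 with the siRNA at 42 h, and at 9.29 and 8.94 against 10.18 and 10.15 at 54 h. In IMR-32 the values were 7.79 and 7.70 against 9.10 and 9.01, and 7.52 and 7.65 against 9.55 and 9.53. The gap was wider at 54 h in both lines, with effects of 1.04, 1.40 and 1.504 at 42, 48 and 54 h and a change of 0.46 (unadjusted p = 0.0229). A second, dimmer probe of CNTN1 gave a change of -0.09, so the probes disagreed.

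**Figure D2:**
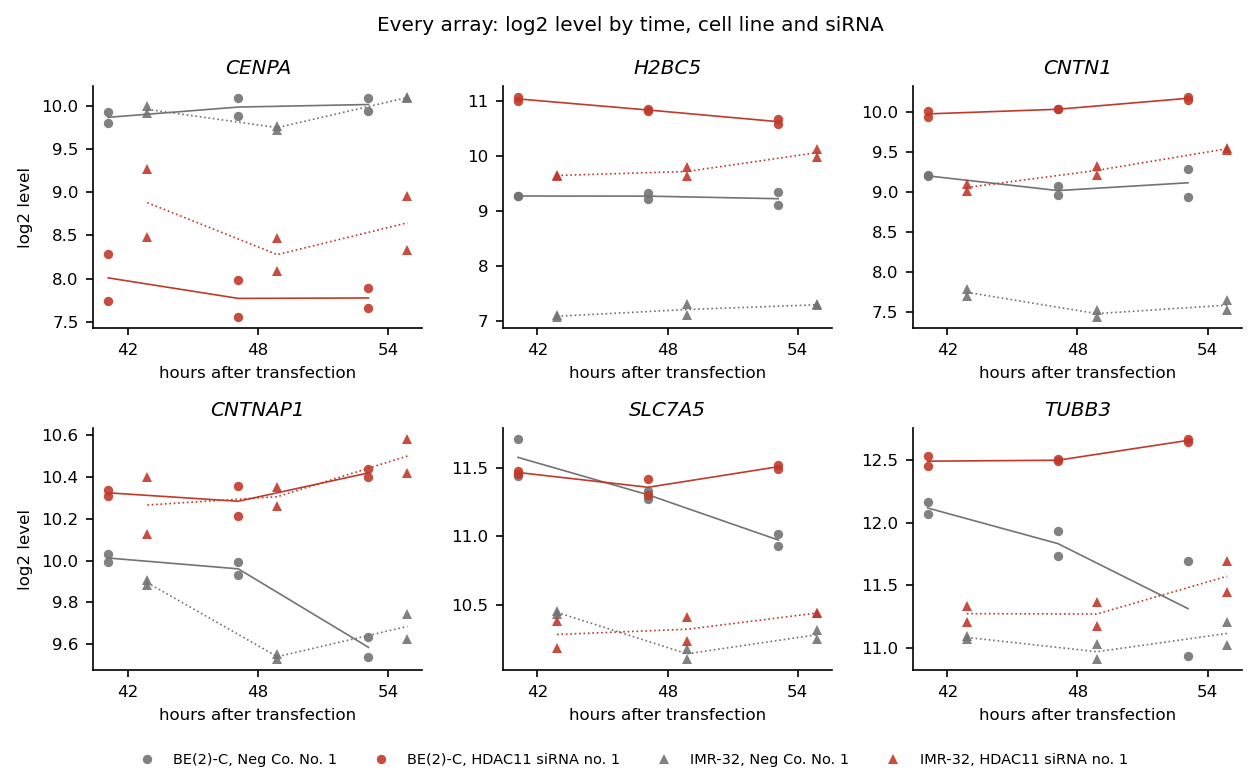
Log2 level (y axis) by hours after transfection (x axis) of 6 genes on each array; circles are BE(2)-C, triangles IMR-32, grey the control, red siRNA no. 1, and lines join the means of 2 arrays. CENPA, H2BC5 and CNTN1 are separated by siRNA at each time, and for CNTNAP1 and TUBB3 the grey and red BE(2)-C points lie furthest apart at 54 h.

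The genes with the smallest p-values of the change, among those whose change had the same sign in both lines, are values that did not pass. Their same direction in both lines was thus part of the choice and is no separate result. CNTNAP1, the partner of contactin at the paranode, came first. In BE(2)-C its control arrays were at 9.99 and 10.03 at 42 h and 9.54 and 9.63 at 54 h, while the siRNA arrays were at 10.34 and 10.31 and then 10.44 and 10.40. In IMR-32 the controls went from 9.90 and 9.88 to 9.75 and 9.62 and the siRNA arrays from 10.40 and 10.13 to 10.42 and 10.58. The groups were apart at both times, and further apart at 54 h. The effect was 0.34, 0.55 and 0.83 at the 3 times, and the change was 0.48 (95% interval 0.26 to 0.71, unadjusted p = 0.000183), made up of 0.17 on the siRNA arrays and -0.32 on the control arrays.

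SLC7A5, a large neutral amino acid transporter, had a change of 0.48 (95% interval 0.21 to 0.75, unadjusted p = 0.00117), with 0.10 from the siRNA arrays and -0.38 from the controls. Its BE(2)-C controls were at 11.71 and 11.44 at 42 h and at 10.93 and 11.01 at 54 h, against 11.45 and 11.48 and then 11.49 and 11.52 with the siRNA. In IMR-32 the controls were at 10.46 and 10.44 and then 10.32 and 10.25, against 10.38 and 10.18 and then 10.44 and 10.44. At 42 h the groups overlapped in BE(2)-C and the siRNA arrays were slightly lower in IMR-32, and at 54 h the siRNA arrays were higher in both lines.

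In the other direction, COQ10A, a coenzyme Q binding protein of mitochondria, had a change of -0.46 (95% interval -0.72 to -0.21, unadjusted p = 0.000896). Its BE(2)-C levels were 8.76 and 8.74 in controls against 8.70 and 8.48 at 42 h, and 8.77 and 8.95 against 8.07 and 8.25 at 54 h. IMR-32 had 9.31 and 9.32 against 9.25 and 9.45, and then 9.46 and 9.41 against 9.09 and 9.07. The groups were close or overlapping at 42 h and apart at 54 h, with the siRNA arrays lower in both lines.

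The acyl-CoA thioesterase gene ACOT13 changed by -0.39 (unadjusted p = 0.000972), with an effect of 0.16 at 42 h and -0.23 at 54 h. SMAD7, an inhibitor of TGF-beta signaling, had -0.37 (unadjusted p = 0.00168), with BE(2)-C controls at 7.39 and 7.36 at 42 h and at 7.76 and 7.73 at 54 h, against 7.50 and 7.48 and then 7.32 and 7.402 with the siRNA. A second SMAD7 probe gave 0.08. Of the 10 genes named by p-value, 5 were detected on at least 8 arrays; the others (PLG, USP17L26, TMEM132C, ZNF141 and CAPN9) were dim.

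**Figure D3:**
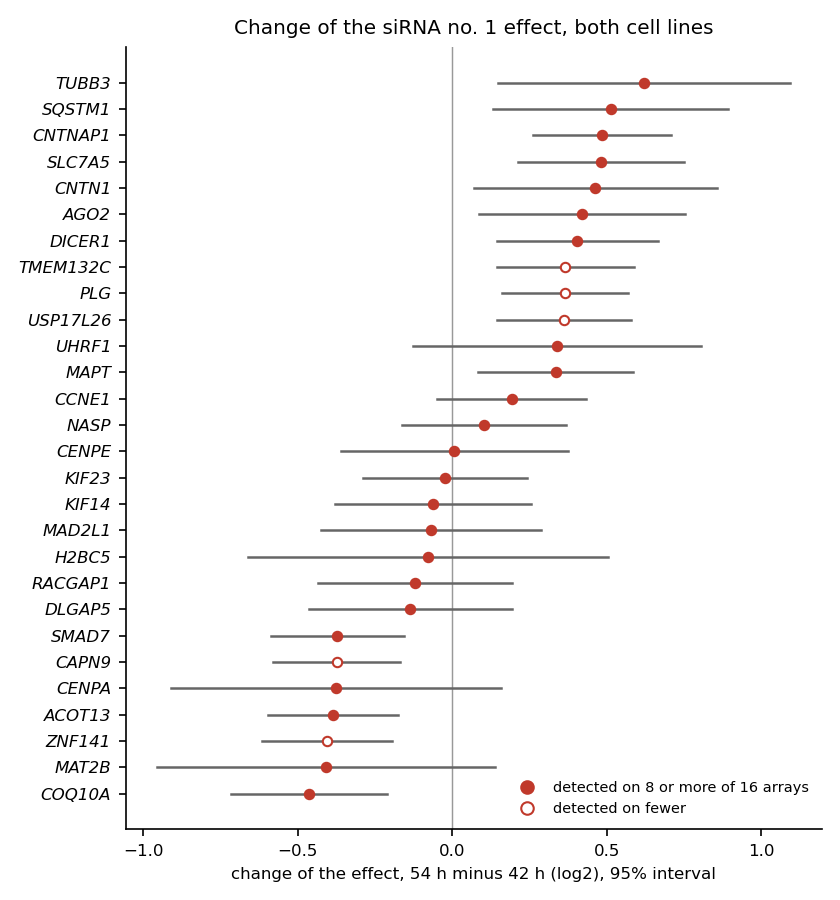
Change of the siRNA no. 1 effect from 42 h to 54 h (x axis, log2) with its 95% interval. Shown are the genes with the smallest p-values among those of the same sign in both lines, the 10 cell cycle genes and further named genes. Open points mark genes detected on fewer than 8 of 16 arrays. The 10 cell cycle genes all have intervals that include 0, and none of the genes shown passed an adjusted p of 0.05.

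Genes called on the 48 h arrays, which neither of the other times uses, give the effect at 42 h and 54 h without a choice by its outcome. The 48 h values made the choice, so they are not comparable with those at 42 h and 54 h. This choice was made after the data were seen. For the 1724 genes higher at 48 h (8.6% of those tested), the median effect was 0.35 at 42 h, 0.39 at 48 h and 0.41 at 54 h, and 1170 of them (67.9%) had a larger value at 54 h than at 42 h. For the 1553 lower genes (7.75%) the medians were -0.40, -0.45 and -0.45, and 1017 (65.5%) were further below 0 at 54 h. The distance between the medians of both sets was 0.748 at 42 h and 0.857 at 54 h, a gain of 0.109 (0.839 at 48 h, where the genes were chosen). In BE(2)-C the median change was 0.07 for the higher and -0.02 for the lower set, but 0.03 and 0.02 without siRNA replicate 1 at 42 h, so that the BE(2)-C part of the gain depends on that array. In IMR-32 it was 0.07 and -0.08, with 0.03 for the higher set and -0.04 for the lower set without siRNA replicate 1 at 54 h. Median scaling gave a gain of 0.111, although it moved the change of all genes by -0.0367 and gave the higher genes alone a median change of -0.0309 in place of 0.0633.

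The cell cycle lists were low at both times. Of 29 genes for G2/M cyclins, CDK1 and mitotic kinases, 23 were lower at both times and 0 higher (background 4.89% and 4.64%), with median effects of -0.71 at 42 h and -0.68 at 54 h. The counts lower at both times were 29 of 40 for kinetochore and spindle checkpoint genes, 29 of 37 for mitotic kinesins and cytokinesis genes and 41 of 54 for DNA replication and nucleotide supply. Of 28 genes of homologous recombination, Fanconi and mismatch repair, 16 were lower at both times, and 9 of 22 of the anaphase-promoting complex. The 10 cell cycle genes that the study picked from these samples, and which are therefore no independent evidence of direction, had 9 lower at both times. UHRF1, which guides maintenance of DNA methylation, was the exception and was called lower at 42 h only. In BE(2)-C it was at 11.88 and 11.83 against 11.54 and 11.36 at 42 h and at 11.66 and 11.48 against 11.74 and 11.54 at 54 h, so the groups overlapped at the later time, while in IMR-32 they were at 12.01 and 12.02 against 10.66 and 11.21 and then 11.94 and 11.90 against 10.84 and 11.25. The change of UHRF1 had an interval that includes 0.

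None of these lists had a gene whose change passed adjustment. The median changes of all of them other than the anaphase-promoting complex list (-0.06 in BE(2)-C and -0.11 in IMR-32) had opposite signs in the cell lines. The DNA replication list had 0.10 and -0.08, but 0.02 in IMR-32 without siRNA replicate 1 at 54 h. The recombination and repair list had 0.05 and -0.06. Without siRNA replicate 1 at 54 h of the line, these turned to -0.05 in BE(2)-C and 0.05 in IMR-32. For the G2/M list the median change was 0.14 in BE(2)-C (23 of 29 genes above 0) and -0.21 in IMR-32 (27 of 29 below 0), beside medians over all genes of 0.0003 and -0.0002. On the siRNA arrays alone the median difference of 54 h from 42 h was 0.18 in BE(2)-C and -0.18 in IMR-32, and on the control arrays it was 0.03 and 0.01. Leaving out each array in turn, the BE(2)-C median ranged from 0.10 to 0.19 and the IMR-32 median from -0.34 to -0.09. The lowest and highest IMR-32 values came without siRNA replicate 2 at 54 h and at 42 h, and those arrays move the value by over 1.5 times. The kinetochore list had 0.06 and -0.16, with 0.02 in BE(2)-C without control replicate 2 at 54 h and -0.08 in IMR-32 without siRNA replicate 1 at 54 h. The 10 cell cycle genes had 0.16 and -0.24, with 0.25 in BE(2)-C without control replicate 1 at 54 h and 0.10 without siRNA replicate 1 at 54 h, and -0.06 in IMR-32 without siRNA replicate 2 at 42 h. The kinesin list had 0.10 and -0.20, but its BE(2)-C value went to 0.23 without control replicate 1 at 54 h and to -0.06 without replicate 2, so that its sign in BE(2)-C rests on which control array is kept. With arrays scaled to their medians, which moved the median of all genes to -0.03 in BE(2)-C and -0.06 in IMR-32, the values were 0.07 and -0.36 for the G2/M list, 0.01 and -0.301 for the kinetochore list, 0.13 and -0.40 for the 10 cell cycle genes and 0.08 and -0.35 for the kinesin list.

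CDK1, the mitotic cyclin-dependent kinase, had the widest gap between the lines in that list and was named after its values were seen. On the BE(2)-C arrays it was at 11.29 and 11.18 in controls against 10.58 and 10.39 at 42 h, and at 10.84 and 11.04 against 10.76 and 10.67 at 54 h. In IMR-32 it was at 10.75 and 10.90 against 9.95 and 10.32, and then at 10.78 and 11.13 against 9.54 and 9.99. The siRNA arrays stayed below the controls in each case, closer at 54 h in BE(2)-C and further in IMR-32. The effect of CDK1 was -0.75 then -0.22 in BE(2)-C and -0.69 then -1.19 in IMR-32, and the difference of the change was 1.03 (95% interval 0.45 to 1.60, unadjusted p = 0.00102), or 0.93 without the array that stood apart.

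The kinases NEK2 and AURKA had differences of 0.87 and 0.70 in the same direction, or 0.76 and 0.66 without that array. Across all genes the line difference called 0 genes at an adjusted p of 0.05 (limma), with 836 genes (4.17%) at an unadjusted p under 0.05. That share was 9 of 29 in the G2/M list, 6 of 40 in the kinetochore list and 12 of 37 in the kinesin list, beside the 4.17% over all genes. It was 3 of 54 for DNA replication, 1 of 28 for recombination and repair and 3 of 22 for the anaphase-promoting complex. The members of a list move together and are not independent.

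**Figure D4:**
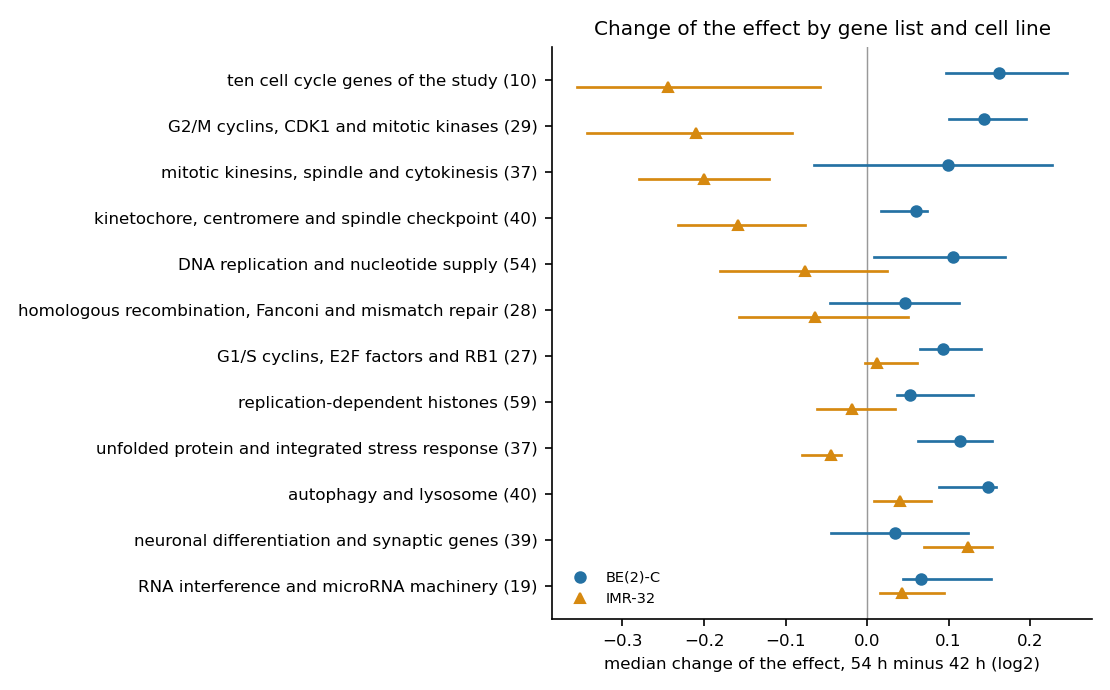
Median change of the effect (x axis, log2, 54 h minus 42 h) of 12 gene lists in BE(2)-C (blue circles) and IMR-32 (orange triangles), with list sizes in brackets; bars span the medians obtained when each array is left out in turn. The G2/M, kinetochore and 10-gene lists lie above 0 in BE(2)-C and below 0 in IMR-32 along their whole bars, while the BE(2)-C bar of the kinesin list crosses 0.

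Replication-dependent histones had 8 of 59 members higher and 1 lower at both times (background 4.64% and 4.89%), and 29 of 59 were detected. H2AC6 is 1 example, with BE(2)-C controls at 7.12 and 7.14 against 9.84 and 9.87 at 42 h and at 7.19 and 6.86 against 9.66 and 9.78 at 54 h. In IMR-32 it was at 6.76 and 6.80 against 7.74 and 7.96, and then at 6.81 and 6.99 against 8.33 and 8.49. There was no overlap within a line, and the effect was 2.72 then 2.70 in BE(2)-C. H2AC6 was detected on 12 of the 16 arrays. Of the 4 IMR-32 controls 3 were not above background, so log2 differences there understate the effect and are not given. The BE(2)-C control of 6.86 at 54 h lay within the range of these IMR-32 controls, so the BE(2)-C effect of 2.70 may also be understated. H2BC12 had effects of 1.59 and 1.82 at 42 h and 54 h. H4C3 was the member lower at both times, with -0.51 and -0.64. Histone genes are near-identical copies, so signal may be shared between members.

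Neuronal differentiation and synaptic genes had 14 of 39 members higher and 2 lower at both times (background 4.64% and 4.89%). In this list 4 changes had an unadjusted p under 0.05 (limma), all above 0 against a background of 1.99% (TUBB3, DCX, MAPT and CNTN1). Of the 39 changes, 25 were above 0 and 14 below, with a median of 0.03. The median effect of the list was 0.28 at 42 h and 0.22 at 54 h. It went from 0.20 to 0.09 in BE(2)-C and from 0.25 to 0.39 in IMR-32. DCX, a microtubule protein of migrating neurons, had effects of 0.99 and 1.34, and MAPT, which encodes tau, 0.83 and 1.17. A second MAPT probe, detected on 12 arrays, had effects of 0.21 and 0.13 and a change of -0.08, so the MAPT probes disagreed. TUBB3, the neuronal beta-tubulin, had the largest change of the list, 0.62 (unadjusted p = 0.0126). Its BE(2)-C controls were at 12.17 and 12.07 at 42 h and at 10.93 and 11.69 at 54 h, against 12.54 and 12.45 and then 12.67 and 12.65 with the siRNA. The low value of 10.93 is on the array that stood apart. Without that array the joint change of TUBB3 was 0.36.

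The autophagy and lysosome list had 8 of 40 members higher at both times (background 4.64%), 9 at 42 h (6%) and 13 at 54 h (8.06%). Its median change was 0.09, with 0.15 in BE(2)-C (0.09 without siRNA replicate 2 at 54 h) and 0.04 in IMR-32 (0.01 without control replicate 2 at 42 h and 0.08 without control replicate 2 at 54 h). Median scaling turned the IMR-32 value to -0.09. SQSTM1, the autophagy receptor p62, changed by 0.51 (unadjusted p = 0.0104). On its BE(2)-C control arrays it went from 11.93 and 11.83 to 10.79 and 11.41, and on the siRNA arrays from 12.33 and 12.49 to 12.16 and 12.19. In IMR-32 it went from 11.17 and 11.26 to 10.98 and 10.96 on the control arrays, and from 11.47 and 11.40 to 11.70 and 11.63 on the siRNA arrays. The siRNA arrays were above the controls throughout, and without the array that stood apart the change of SQSTM1 was 0.32.

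In the list of RNA interference machinery, 3 of 19 genes had a change with an unadjusted p under 0.05, all above 0 (background 1.99%), among them DICER1, the RNase that cuts microRNA precursors, and AGO2, the Argonaute that cleaves siRNA targets. DICER1 changed by 0.40 (unadjusted p = 0.00384) and AGO2 by 0.42, or by 0.39 and 0.30 without the array that stood apart. A second DICER1 probe, also detected on all 16 arrays, changed by 0.08, so the DICER1 probes disagreed. Adrenergic identity genes had 2 of 29 members higher at 42 h (background 6%) and 8 at 54 h (background 8.06%). Their median effect was 0.165 at 42 h and 0.166 at 54 h, and 17 changes were above 0 and 12 below. The receptor tyrosine kinase gene ALK changed by 0.39 (limma, unadjusted p = 0.00506). TH, the other gene of this list named by p-value, changed by -0.23, and by -0.29 on a second probe. Interferon response genes had 0 of 38 members called at both times, against a background of 4.64% higher and 4.89% lower. Of 28 p53 target genes, 2 were higher and 4 lower at both times, beside that background. Over the 31 lists, 0 genes passed an adjusted p of 0.05 for the change.

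Taken apart, the change has a siRNA side and a control side. Between 42 h and 54 h the siRNA no. 1 arrays had 0 genes past an adjusted p of 0.05 (limma, 1132 genes at an unadjusted p under 0.05, smallest adjusted p 0.411), and the control arrays also had 0 (2151 genes, 10.7%, smallest adjusted p 0.0652). Without the array that stood apart the control arrays had 1421 genes (7.09%) at an unadjusted p under 0.05. CNTNAP1, SLC7A5 and SQSTM1 are examples in which the control side was the larger of the 2.

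In the fits of 1 line, 0 genes passed in BE(2)-C (limma, 1200 genes at an unadjusted p under 0.05, smallest adjusted p 0.518) and 0 in IMR-32 (955 genes, smallest adjusted p 0.512). The BE(2)-C result depended on the control arrays at 54 h. With replicate 2 left out, so that the control at 54 h rested on the array that stood apart, the fit called 160 genes higher (0.798%) and 144 lower (0.718%). With replicate 1 left out it called 0, with 1330 genes at an unadjusted p under 0.05. The lone control array is assumed to vary like the others in both fits. The difference between the lines moved in the same way, to 7 genes higher and 29 lower without replicate 2 and 0 without replicate 1.

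UCP2 and HMGA1, named after their values were seen, had among the largest changes of those calls and lay far from their replicate on that array. UCP2, a mitochondrial carrier, was at 10.40 on replicate 1 and 8.83 on replicate 2 of the BE(2)-C control at 54 h, between 8.66 and 8.81 on the 42 h and 48 h controls, and at 8.44 and 8.48 with the siRNA at 54 h. Its BE(2)-C change was -1.84 without replicate 2 and -0.28 without replicate 1. HMGA1, an architectural chromatin protein, was at 12.71 and 11.04 on these control arrays, with 10.12 and 9.81 on the siRNA arrays at 54 h, and its change was -1.71 or -0.05. CDC20, the activator of the anaphase-promoting complex, was at 10.40 and 11.40, and its BE(2)-C change was 1.09 without replicate 2 and 0.08 without replicate 1.

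**Figure D5:**
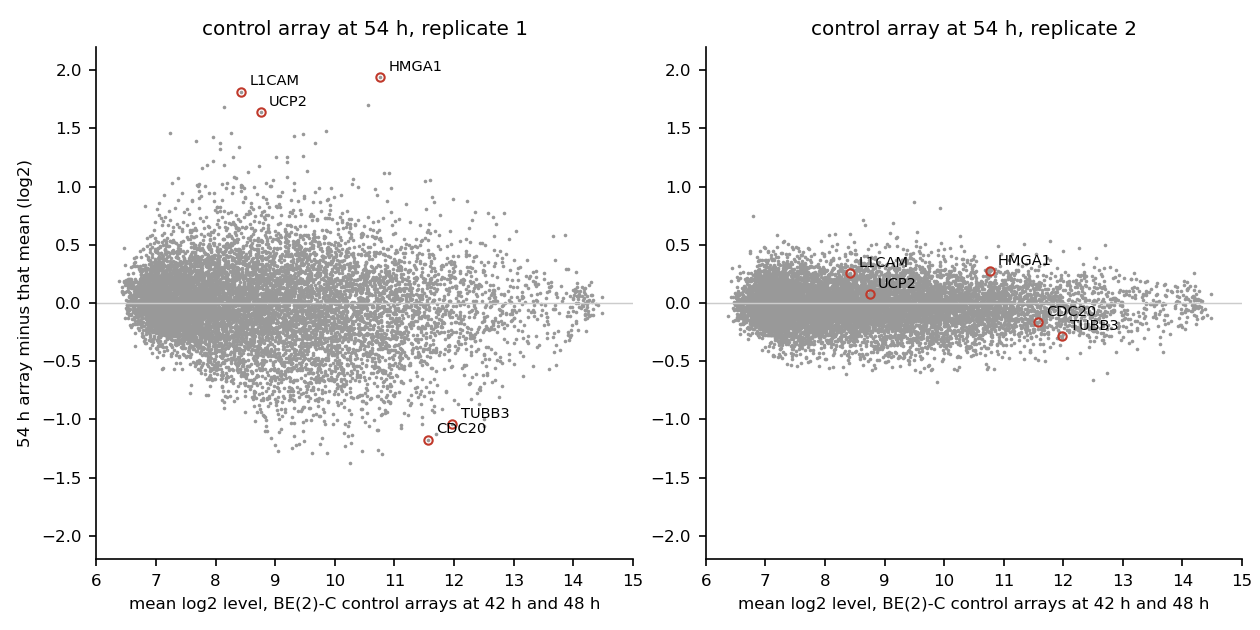
Deviation of each BE(2)-C control array at 54 h from the mean of the 42 h and 48 h controls (y axis, log2) against that mean (x axis, log2 level), for 11003 detected genes, replicate 1 on the left and replicate 2 on the right. Replicate 1 has 108 genes beyond 1 log2 unit and replicate 2 has 0, and the circled UCP2, HMGA1, L1CAM, TUBB3 and CDC20 lie more than 1 log2 unit from 0 on the left panel only.

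With HDAC11 siRNA no. 2, which shares the control arrays, the change called RN7SK, the RNA of the 7SK particle, in the higher direction (0.97, limma adjusted p = 0.0441; 0.03 with siRNA no. 1), which was 1 gene or 0.00499% of those tested, and 0 genes in the lower direction (874 genes at an unadjusted p under 0.05). The direct difference between the siRNAs in their change, in which the controls cancel, called 0 genes (limma, 818 genes at an unadjusted p under 0.05, smallest adjusted p 0.473). For the G2/M list the median change was -0.04 with siRNA no. 1 and -0.02 with siRNA no. 2, and for the neuronal list 0.03 and -0.0028.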

How the data were processed

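Total RNA of 36 cultures was measured on Illumina bead arrays. The authors deposited a table of non-normalized probe intensity with a detection p-value for each probe and array, and a second table of normalized intensities. Per the study's methods the arrays were read on an iScan scanner and outlying beads were dropped before the beads of a probe were averaged. The members of the comparison and the gene lists were chosen with earlier results of these data known.

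Of 47323 probes, 3 with blank or 0 cells were left out and 47320 were tested. Intensities were quantile-normalized and log2 transformed, as in the study's methods, here over the 36 arrays. No background correction and no filter on dim probes were applied. limma 3.58.1 (R 4.3.3) was fitted to the 16 arrays with siRNA and time as 4 groups and cell line as a block, to the 12 arrays of each line with its 48 h arrays, and to both lines for their difference. p-values were two-sided and Benjamini-Hochberg adjusted over all probes at a threshold of 0.05. A gene was represented by its brightest probe (20045 genes), and a probe counted as detected at a detection p under 0.01 on the high side of the background. A single gene symbol was given for 30112 of the tested probes, more than 1 for 8, and 17200 were unnamed. The fit of both lines together, and no other, was run on simulated data with known changes, and the outcome is not given here.

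Named genes were HDAC11, the 10 cell cycle genes of the study and the 2 smallest p-values of each list. Where none passed, the 5 smallest p-values in each direction were named among genes whose change had the same sign in both lines. Genes with the largest mean effect were added after the data were seen. p-values measure the spread between these cultures. In the fits with cell line as a block, that spread also holds differences between the lines in their response to siRNA and time.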

Additional observations from a re-analysis of the deposited data

Results flagged for a closer look

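In 4 of 31 gene lists examined, the median change of the effect had opposite signs in the cell lines and kept its sign in each line whichever array was left out. The difference was not tested for a list, since its genes move together, and with 2 arrays per condition it rests on few cultures. The gap between BE(2)-C and IMR-32 was 0.3537 log2 units for G2/M cyclins, CDK1 and mitotic kinases. The replicate pairs gave 0.10 and 0.21 in BE(2)-C and -0.19 and -0.22 in IMR-32. It was 0.2179 for kinetochore, centromere and spindle checkpoint genes, and 0.4057 for the 10 cell cycle genes that the study chose on these samples. The same mitotic genes stand in several of these lists.

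Unfolded protein and integrated stress response genes had a gap of 0.1591, with 0.11 in BE(2)-C and -0.04 in IMR-32 (0.06 without BE(2)-C siRNA replicate 1 at 54 h, and -0.08 without IMR-32 control replicate 2 at 42 h). Of their 37 members, 1 had a joint change with an unadjusted p under 0.05, and that gene was SLC7A5.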

How the results depend on the processing

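The absence of calls for the joint change held in the other settings tried, of which the stricter adjusted p and the choice of another probe per gene could give no calls, and whichever array was left out (0 to 0 genes in each direction), and likewise for IMR-32 (0 to 0), where leaving out control replicate 1 at 42 h gave 1 called probe that represents no gene. Leaving out 1 array, BE(2)-C ranged from 0 to 160 genes higher and 0 to 144 lower, the line difference from 0 to 7 and 0 to 29, and the difference between the siRNAs from 0 to 0. Genes called at 42 h ranged from 761 (without BE(2)-C siRNA no. 1 replicate 2) to 1438 higher and 859 to 1335 lower, at 54 h from 1265 to 1610 higher and 1180 to 1465 lower, and at both times from 657 to 990 and 768 to 1067.

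At an adjusted p of 0.01, 693 genes were higher at 42 h, 997 at 54 h and 563 at both. A mean for each of 8 groups gave 1397 genes higher at both times and 11 lower for the difference between the siRNAs. Median scaling gave 722 genes lower at 42 h. The model with 8 means gave the same estimates of the difference between the siRNAs as the fit with cell line as a block. Its standard errors differed, for RN7SK 0.1192 against 0.275. Apart from that and the stricter threshold, the cause of these moves was not tested. Of 2959 pairs of a named gene and a setting, 0 passed the threshold, 2914 lay within 1 standard error of the value reported and 91 had the other sign.

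Replicate numbers did not pair the samples: deviations of same-numbered arrays correlated at 0.0295 to 0.0691. With the replicate block the change still called 0 genes in both lines together (843 at an unadjusted p under 0.05), in BE(2)-C, in IMR-32, between the lines and between the siRNAs; it called 1215 higher and 1169 lower genes at 42 h and 1656 and 1473 at 54 h.

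With 4 arrays per group no change up to 0.63 log2 units passed adjustment over 47320 probes, and HDAC11 itself was at background.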

Other observations

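In a model with a mean for each of the 8 combinations of line, siRNA and time, 11 genes had a lower change with siRNA no. 1 than with siRNA no. 2 past an adjusted p of 0.05 (limma); in the fit with cell line as a block none of them passed, with adjusted p-values from 0.473 to 1. The 11 comprise RN7SK, RNA5S9, RNU6ATAC, RNU1-3, SNORA73A, SNORA73B, SNORA64, SNORA80A, SNORD3C, SNORD3D and the protein-coding RIMBP3. They were named after their values were seen.

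RN7SK, the RNA that holds the elongation factor P-TEFb inactive, had the smallest adjusted p of the 11 in the model with 8 means, 0.00015, and a difference of -0.94. In BE(2)-C it was at 10.06 and 9.81 at 42 h and at 11.05 and 11.12 at 54 h with siRNA no. 2, and at 10.78 and 10.58 and then 11.04 and 11.10 with siRNA no. 1. In IMR-32 it went from 10.86 and 10.65 to 11.72 and 11.61 with siRNA no. 2 and from 10.74 and 10.36 to 10.31 and 10.38 with siRNA no. 1. The siRNA no. 2 arrays were higher at 54 h than at 42 h in both lines without overlap, and the siRNA no. 1 arrays were higher in BE(2)-C but not in IMR-32.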
